A study of Mus musculus with 9 samples.

Results

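Of the 23171 gene rows in the deposited table, 9 belong to the Klf2 and S1pr1 exit axis that governs whether a T cell stays in lymphoid tissue or leaves it. They are the transcription factor genes Klf2, Klf3, Klf6 and Klf13, the sphingosine 1-phosphate (S1P) receptor genes S1pr1, S1pr2 and S1pr4, the chemokine receptor gene Ccr7 and the surface protein gene Cd69. The rows were taken by gene symbol from a list made with earlier results of these data known, and all 9 were found and passed the filter on low values described below.

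RNA was measured by sequencing in CD4 T cells from lymph nodes and spleen of C57BL6 mice, in 3 libraries for each of 3 groups. The groups are called Hopx high, Hopx low and naive. The first and second are named after the level of Hopx, a homeodomain protein that does not bind DNA itself. Per the labels, all groups share the same handling. Chimeric antibodies that bring antigen to dendritic cells were injected into the peritoneum 5 days before cells were sorted, and the sorted T cells were stimulated again by antigen-presenting cells for 12 h in culture, and sorted once more before RNA extraction. No genetic change, T cell receptor or reporter allele is given in the labels, nor is the age of the mice, nor how the Hopx level was read, nor whether the naive cells came from injected animals. Separate animals behind the replicates are not stated either, so every p-value measures the spread between these libraries, which may be technical.

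S1P is abundant in blood and lymph and scarce inside lymphoid tissue, and S1PR1 on the T cell reads that gradient and draws the cell out. KLF2, a zinc-finger factor kept on in resting T cells by FOXO1, drives transcription of S1pr1. Stimulation through the T cell receptor switches Klf2 and S1pr1 off and Cd69 on, and CD69 protein binds S1PR1 and takes it off the cell surface, while CCR7 holds cells in the T cell zone.

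Summed coverage was 63.3 to 289 megabases in naive, 330 to 442 in Hopx low and 203 to 800 in Hopx high. Values below are bases of coverage on a gene per megabase of library total (bases per Mb). The non-coding RNA gene Gas5 alone took 40.0% and 29.1% of the total in naive replicates 1 and 2, 21.3% in Hopx high replicate 2 and 1.16% to 18.5% in the others, and a large share lowers the value of each other gene in that library. The least covered member in any library was S1pr2 in Hopx high replicate 3, with 2251 bases. The first and second naive replicates carry the descriptions 1A and 1B and differed by less than sampling noise at an assumed read length of 100 bases (median chi-square ratio 0.970, against 6.35 to 17.8 for the other pairs within a group). They were averaged and counted as 1 sample, which leaves n = 2 for naive. Naive replicate 3 stood apart from them, with r of 0.653 and 0.647 across 6078 genes, which are not independent replicates. It was closest to Hopx low replicate 3 (r = 0.871). Naive replicates 1 and 2 were closer to Hopx low replicate 1 (0.847 and 0.852) than to Hopx low replicate 3 (0.676 and 0.672). The cause of this pattern was not tested. Every result against naive rests on these unlike naive samples. The naive libraries also differ from the Hopx libraries in sex-linked rows: coverage of Xist was 76.1 to 263 bases per Mb in naive, while no Hopx library exceeded 0.400. Conversely, 4 Y-linked genes ranged from 17.7 to 85.5 where the cells were Hopx low or high and did not exceed 0.30 in naive, so the groups appear to differ in the sex of the mice, which the labels do not give. The part of that difference in the results against naive cannot be told apart from the groups. RNA of Hopx itself ran from 4.89 to 8.95 bases per Mb across Hopx high, from 3.29 to 6.90 in Hopx low and from 0 to 1.64 in naive, so the Hopx groups overlapped in it. In bulk RNA, fewer cells of a type and less RNA per cell cannot be told apart.

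The exit-axis genes were lowest in Hopx high. All 9 had a lower mean in Hopx high than in Hopx low. Between Hopx low and naive 8 of the 9 log2 differences were negative, beside 25.9% of all genes, and without naive replicate 3 those of S1pr1, Ccr7 and Klf6 turned positive, as that of Cd69 already was. S1pr1 and Klf2 stood out, with means 5.88 and 4.14 times higher in Hopx low than in Hopx high. For 6 of the 9 genes (Klf2, Klf3, S1pr1, S1pr2, Ccr7 and Cd69) each Hopx high library lay below each Hopx low library, against 10.1% of all 10825 genes tested. That share is to be read beside a median log2 difference of -0.25 over all genes, and 70.0% of all genes tested were also lower on the log2 scale.

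**Figure D1:**
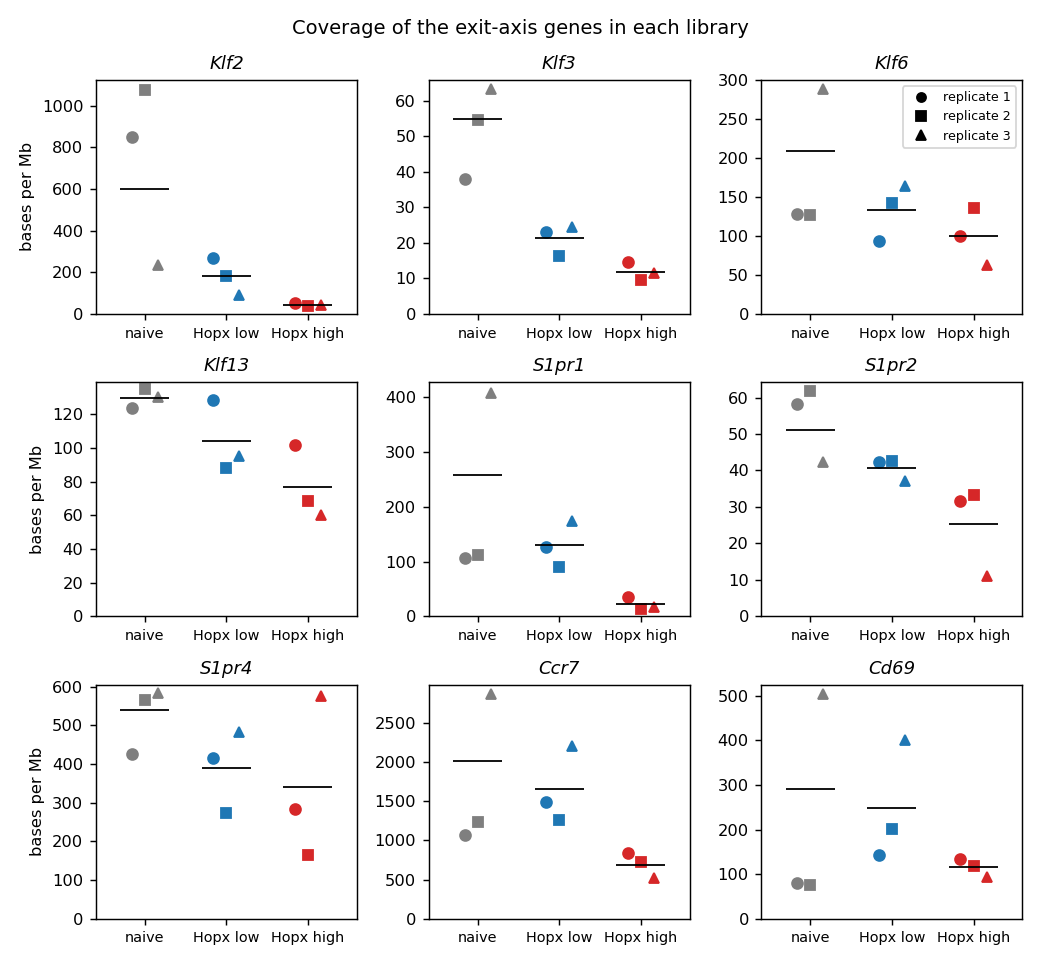
Coverage of the 9 genes in bases per Mb (linear axis from 0) in each of the 9 libraries, by group, with the symbol giving the replicate number. Black bars are group means, with naive replicates 1 and 2 counted as 1 sample; Hopx high is the lowest group for Klf2, S1pr1 and Ccr7, and the naive libraries are far apart for Klf2, S1pr1, Ccr7 and Cd69.

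Klf2 lies on chromosome 8 at 72319033 to 72321656 of GRCm38. Hopx high replicates 1 to 3 had 50.1, 38.7 and 41.3 bases per Mb, and Hopx low had 267, 183 and 89.1. In naive it had 849, 1074 and 236. All Hopx high libraries were lower than any other library and close to one another, while the lowest naive library lay inside the Hopx low range. Against naive, Klf2 was lower in Hopx high, with a log2 difference of -3.43 ± 0.59 (SE; limma adjusted p = 0.00158). It was called under all 21 alternatives tried (largest limma adjusted p = 0.0456). The log2 difference of Hopx low from naive was -1.54 ± 0.59 (SE) and did not pass (limma adjusted p = 0.404). It became -2.55 when naive replicate 3 was left out and naive was 1 sample assumed to vary like the Hopx groups. Klf2 was 5.33, 4.73 and 2.16 times higher in the Hopx low than in the Hopx high library of the same number.

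Between Hopx high and Hopx low, 0 of 10825 genes passed in the limma fit to all 3 groups (0.0% lower), while 3 members (Klf2, S1pr1 and Ccr7) and 2.43% of genes were lower at an unadjusted p under 0.05. Without a variance trend limma called 0 genes as well. Klf2 had a log2 difference of -1.90 ± 0.52 (SE) there, the 11th most negative of all genes tested (limma unadjusted p = 0.00184, adjusted p = 0.435). In a limma fit to the 6 Hopx libraries alone, 0.148% of 10846 genes were called lower and 0.489% higher (16 and 53 genes, against 5 and 41 after median scaling and 11 and 77 after quantile normalization), and Klf2 was among them at the same log2 difference of -1.90, now ± 0.40 (SE; limma adjusted p = 0.0150). That fit leaves out the unlike naive samples, which otherwise set part of the spread, and it was known to give more calls when it was chosen. The Klf2 call was lost under 9 of 17 alternatives to it, among them scaling by the median gene (limma adjusted p = 0.0927) and leaving out Hopx low replicate 1 (0.129), Hopx low replicate 2 (0.0577) or Hopx high replicate 3 (0.112).

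Klf3, a repressor of the same family, lies on chromosome 5 at 64803388 to 64832901. It had 14.5, 9.59 and 11.4 bases per Mb across Hopx high, 23.1, 16.2 and 24.5 in Hopx low and 37.9, 54.7 and 63.3 in naive. The 3 groups did not overlap at all, in the order naive, Hopx low, Hopx high. An antisense gene, Gm20033, overlaps its exons, and no source used here says whether strand was used in counting, so its reads and those of Klf3 cannot be told apart. Klf3 was lower in Hopx high than in naive, with a log2 difference of -2.12 ± 0.57 (SE; limma adjusted p = 0.0431), and this call was lost under 10 of 21 alternatives, including each of the 3 that left out a Hopx low library, each of the 3 that left out a Hopx high library (limma adjusted p from 0.0692 to 0.179) and the one without naive replicate 2 (0.0769). With a replicate block the limma adjusted p was 0.106. Its differences between Hopx high and Hopx low (-0.79 ± 0.51, SE) and between Hopx low and naive (-1.33 ± 0.57, SE) did not pass (limma adjusted p = 0.992 and 0.503).

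Klf6 and Klf13 had smaller differences. Klf6, an immediate-early gene in many cells (chromosome 13 at 5861482 to 5870394), had 99.6, 136 and 62.6 bases per Mb across Hopx high, 94.2, 142 and 164 in Hopx low and 128, 128 and 289 in naive. Its groups overlapped in each comparison, and naive replicate 3 was again the highest library. The log2 difference between Hopx high and Hopx low was -0.45, with a 95% interval from -1.42 to 0.52. Klf13, a factor that acts late in T cell activation on the chemokine gene Ccl5 (chromosome 7 at 63886351 to 63938915), had 102, 68.6 and 60.0 bases per Mb across Hopx high, 128, 88.1 and 95.5 in Hopx low and 123, 135 and 130 in naive. Hopx high lay below naive in each library but overlapped Hopx low, with a log2 difference of -0.45 (95% interval -1.34 to 0.44). Neither gene passed in any of the fits or under any alternative.

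Promoter sequences from RefSeq (GRCm38.p6) were used for 6 of the 9 members: Klf2, Klf3, Klf6, Klf13, S1pr2 and S1pr4. The promoters of the KLF genes called lower against naive, Klf2 and Klf3, are shown because KLF factors bind CACCC elements, also in the promoters of other KLF genes. Each run is the 250 bases before the start that RefSeq gives, on the plus strand, 5′ to 3′ (Klf2 at chr8:72318812-72319061 and Klf3 at chr5:64803271-64803520), with CACCC or its reverse complement GGGTG in capitals. The RefSeq start lies downstream of the GENCODE start behind the gene coordinates above, so the last 29 bases of the Klf2 run and the last 133 of the Klf3 run are inside the gene by GENCODE.
Klf2: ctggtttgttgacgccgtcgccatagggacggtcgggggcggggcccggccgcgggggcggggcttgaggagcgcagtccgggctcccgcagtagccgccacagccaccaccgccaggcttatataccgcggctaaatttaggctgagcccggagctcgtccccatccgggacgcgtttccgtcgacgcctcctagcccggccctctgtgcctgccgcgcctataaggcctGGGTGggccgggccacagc
Klf3: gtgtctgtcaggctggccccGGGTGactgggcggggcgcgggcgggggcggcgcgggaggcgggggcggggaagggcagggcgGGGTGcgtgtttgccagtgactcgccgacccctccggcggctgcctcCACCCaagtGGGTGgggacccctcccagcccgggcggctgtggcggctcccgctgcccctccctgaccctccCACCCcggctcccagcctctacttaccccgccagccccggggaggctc
Klf2 held 1 such match, 19 bases before the RefSeq start, and Klf3 held 5, from 230 to 48 bases before it. By the GENCODE starts, the Klf2 match and 3 of the 5 Klf3 matches are inside the gene. Klf13, S1pr2 and S1pr4 held 1 each and Klf6 held 0. Among all 32851 promoters listed, 52.0% hold at least 1 match and 6.53% hold at least 3, so 1 match is common. The FOXO core GTAAACA or its reverse complement TGTTTAC was in 0 of the 6 windows and in 3.17% of all promoters. These matches describe letters in the window and are not evidence of binding.

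S1pr1 lies on chromosome 3 at 115710433 to 115715072. It had 35.1, 14.3 and 17.2 bases per Mb across Hopx high, 127, 90.2 and 174 in Hopx low, and 106, 113 and 408 in naive. Each Hopx high library lay below the lowest of the other 6, and Hopx low overlapped naive. Its log2 difference between Hopx high and Hopx low, -2.56 ± 0.53 (SE), was the most negative of all 10825 genes tested in the fit to all groups (limma unadjusted p = 0.000118, adjusted p = 0.269). In the 6-library fit S1pr1 was called lower (± 0.41, SE; limma adjusted p = 0.00136) and stayed called under 15 of 17 alternatives. Those that ended the call were no filter on low values (limma adjusted p = 0.227) and leaving out Hopx low replicate 3 (0.0796). The Hopx low library was 3.63, 6.32 and 10.1 times higher than the Hopx high library of the same number. Against naive, S1pr1 was lower in Hopx high, with a log2 difference of -3.30 ± 0.59 (SE; limma adjusted p = 0.00237). That call held under all 21 alternatives (largest limma adjusted p = 0.0473). Hopx low differed from naive by -0.74 ± 0.59 (SE; limma adjusted p = 0.763), and by 0.20 without naive replicate 3. In the authors' deposited table the ratio of Hopx high to Hopx low was 0.170 for S1pr1 (unadjusted p = 0.0124) and 0.241 for Klf2 (unadjusted p = 0.0570). Their ratio of Hopx high to naive was 0.106 for S1pr1 (unadjusted p = 0.135) and 0.0603 for Klf2 (unadjusted p = 0.0541). By the authors' own p neither was under 0.05 against naive, and their naive mean counts replicates 1 and 2 separately. Their unadjusted p was under 0.05 for Klf3 between Hopx high and Hopx low (0.0320). It was so too for Klf3 against naive in Hopx high (0.00607) and Hopx low (0.0175). The same held for Ccr7 between the Hopx groups (0.0328), and for Klf13 (0.0161) and S1pr2 (0.0366) in Hopx high against naive.

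The other S1P receptor genes were not called. S1pr2, whose protein works against migration and holds lymphocytes inside follicles (chromosome 9 at 20962361 to 20976781), had 31.6, 33.3 and 11.1 bases per Mb across Hopx high, 42.2, 42.6 and 37.1 in Hopx low and 58.4, 61.7 and 42.3 in naive. Hopx high lay lowest, with its replicate 3 far below the others, and the log2 difference from Hopx low was -0.80 (95% interval -1.89 to 0.28; limma adjusted p = 0.992). S1pr4, a receptor found mainly on lymphocytes and other blood cells (chromosome 10 at 81497747 to 81500132), had 284, 164 and 576 bases per Mb across Hopx high, 415, 272 and 482 in Hopx low and 426, 564 and 584 in naive. Its groups overlapped throughout, and the log2 difference between Hopx high and Hopx low was -0.34 (95% interval -1.32 to 0.64), and 0.094 when Hopx high replicate 2 was left out. S1pr2 and S1pr4 passed in no fit and under no alternative.

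Set per kilobase (kb) of annotated exon, S1pr4 was the most covered of the S1P receptor genes in each group, at 226 bases per Mb per kb in naive, 163 in Hopx low and 143 in Hopx high. S1pr1 had 85.0, 42.8 and 7.29, and S1pr2 had 6.42, 5.10 and 3.18. Ratios within a library do not depend on how libraries are scaled. The ratio of S1pr1 to S1pr4 was 0.0968, 0.0680 and 0.0234 in Hopx high, 0.241, 0.259 and 0.282 in Hopx low and 0.194, 0.157 and 0.547 in naive. Hopx high did not overlap with any other library in this ratio, and the same held for S1pr1 to S1pr2, at 1.12 to 4.07 in Hopx high and 4.75 to 25.3 in the other libraries. The ratio of S1pr2 to S1pr4 overlapped between all groups. These ratios were chosen with the values known and were not tested.

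**Figure D2:**
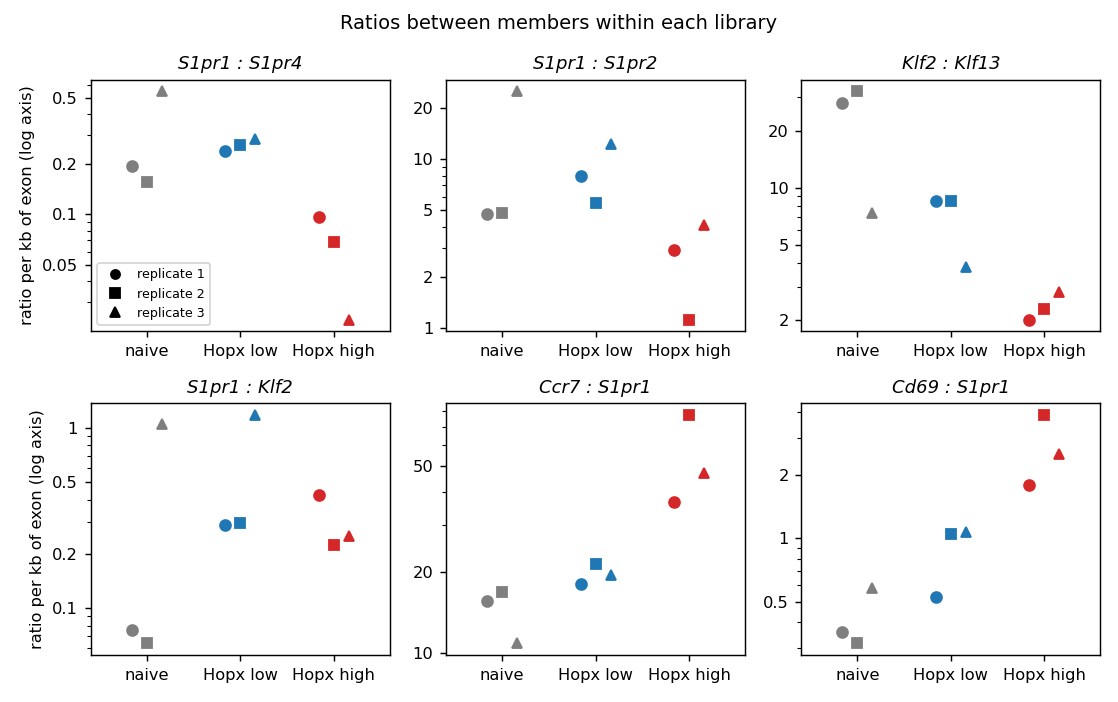
Ratios of coverage per kb of exon between members within each library (log axis), by group and replicate number. Hopx high libraries lie below all others for S1pr1 to S1pr4, S1pr1 to S1pr2 and Klf2 to Klf13, and above all others for Ccr7 to S1pr1 and Cd69 to S1pr1; the ratio of S1pr1 to Klf2 spans 0.0637 to 1.05 within naive.

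Among the KLF genes, the ratio of Klf2 to Klf13 was 2.01 to 2.81 in Hopx high, 3.805 to 8.48 in Hopx low and 7.39 to 32.4 in naive, and Hopx high did not overlap with the others. The ratio of Klf2 to Klf3 did overlap, at 21.0 to 24.6 in Hopx high and 22.2 to 70.2 in Hopx low, and so did Klf2 to Klf6.

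Klf2 and S1pr1 did not move together across the naive libraries. Naive replicates 1 and 2 had high Klf2 (849 and 1074 bases per Mb) and low S1pr1 (106 and 113), whereas naive replicate 3 had low Klf2 (236) and high S1pr1 (408). Per kb of exon, the ratio of S1pr1 to Klf2 was 0.0756 and 0.0637 in naive replicates 1 and 2 and 1.05 in replicate 3. Hopx low repeated this split, with 0.290 and 0.299 in replicates 1 and 2 and 1.18 in replicate 3. The Hopx high libraries had 0.425, 0.224 and 0.253, so replicate 3 was not set apart there. Replicate 3 of naive and of Hopx low also had the highest Ccr7 and Cd69 of their groups.

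Ccr7, the receptor for the T zone chemokines CCL19 and CCL21 (chromosome 11 at 99144196 to 99155077), was the most covered member. It had 835, 720 and 525 bases per Mb across Hopx high, 1495, 1257 and 2206 in Hopx low and 1074, 1240 and 2871 in naive. Hopx high was below the other libraries without overlap, and Hopx low lay within the naive range. The log2 difference between Hopx high and Hopx low was -1.24 ± 0.47 (SE; limma unadjusted p = 0.0158, adjusted p = 0.892) and that from naive was -1.42 ± 0.52 (SE; limma adjusted p = 0.162). Neither passed, nor did Ccr7 in the 6-library fit (limma adjusted p = 0.313, and 0.103 with a replicate block). The ratio of Ccr7 to S1pr1 per kb was 36.6 to 77.6 in Hopx high, against 10.8 to 21.5 in the other libraries.

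Cd69, the activation marker whose protein holds S1PR1 inside the cell (chromosome 6 at 129267325 to 129275436), had 134, 118 and 92.7 bases per Mb across Hopx high, 142, 201 and 400 in Hopx low and 80.8, 76.1 and 504 in naive. Hopx high lay just below Hopx low without overlap, and naive held both the lowest and the highest values of all 9 libraries. The log2 difference between Hopx high and Hopx low was -0.98 ± 0.57 (SE; limma adjusted p = 0.992, and 0.396 in the 6-library fit). Against naive it was -0.80 ± 0.63 (SE) in Hopx high (limma adjusted p = 0.629) and 0.18 ± 0.63 (SE) in Hopx low (limma adjusted p = 0.964). Without naive replicate 3 these were 0.53 and 1.51, with naive then only 1 sample. No Hopx high library had more Cd69 RNA than a Hopx low library, while the ratio of Cd69 to S1pr1 per kb was 1.79 to 3.87 in Hopx high and 0.316 to 1.08 elsewhere.

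Counted over the 9 members, 3 were called lower and 0 higher in Hopx high against naive, where 0.499% of 10825 genes were called lower and 3.3% higher. That split depends on the scaling: 54 genes were lower and 357 higher here, 196 and 508 after median scaling, 273 and 458 after quantile normalization, and 129 and 406 with Gas5 left out of the totals. At an unadjusted p under 0.05, 4 members were lower, beside 4.36% of genes, and 6 lay below naive in each library, beside 7.68%. In Hopx low against naive 0 members were called, where 0.00924% of genes were called lower and 0.296% higher by limma, and 2 members, Klf2 and Klf3, were lower at an unadjusted p under 0.05, beside 0.462% of genes. Klf3 alone lay below naive in each Hopx low library, beside 2.36% of genes. The median log2 difference of the members was -1.11 against naive in Hopx high and -0.50 in Hopx low, beside medians of 0.15 and 0.38 over all genes. Both comparisons share the naive samples. Between Hopx high and Hopx low the members' median was -0.80 beside -0.25 over all genes.

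**Figure D3:**
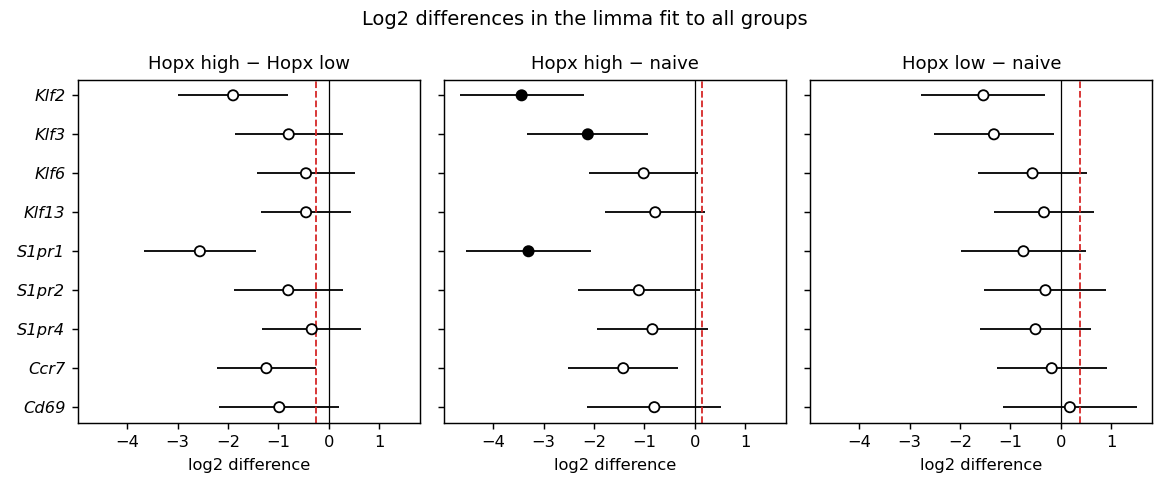
Log2 differences of the 9 genes in the limma fit to all 3 groups, with 95% intervals, for each pair of groups. Filled points passed an adjusted p of 0.05 over all genes tested (Klf2, Klf3 and S1pr1 in Hopx high against naive), and the dashed red line marks the median over all genes.

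The separation of the groups therefore differed between members. For Klf2, S1pr1, S1pr2, Ccr7 and Klf3, Hopx high was the lowest group with no overlap with either of the other groups, while Hopx low and naive overlapped for each of these but Klf3. Of all genes tested, 10.1% lay lower in Hopx high than in Hopx low without overlap, and 7.68% lower than in naive. S1pr2 and Ccr7 were separate in this way but passed in no fit. Cd69 was separate from Hopx low and overlapped with naive, Klf13 was separate from naive and overlapped with Hopx low, and Klf6 and S1pr4 overlapped in each comparison.

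Genes whose pattern was most like that of S1pr1 were ranked by Pearson's r of log2 values among 8927 other genes, as a description with no test, since the libraries share depth and scaling. Over the 8 counted samples Il17ra (r = 0.991), Scml4 (0.988), Kif21b (0.987), Als2cl (0.984) and Hmha1 (0.980) were closest, and over the 6 Hopx libraries Cacul1 (0.995), Map4k4 (0.994), Slc7a1 (0.992), Dag1 (0.991) and Scml4 (0.989). Among the members Ccr7 (0.959) and Klf3 (0.883) were nearest to S1pr1 over the 8 samples, and Klf2 ranked 1276th (0.684). For Klf2 the closest over the 8 samples were Fbrsl1 (0.982), Bcl9l (0.970), Phf1 (0.967), Phf13 (0.964) and Abhd13 (0.963), and over the 6 libraries Ssbp3 (0.989), D4Wsu53e (0.970), Camk2n1 (0.966), Nup62-il4i1 (0.957) and Gpr157 (0.956).

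Of 13 other KLF genes listed, 6 were tested and 0 were called by limma in any comparison, with 2 positive and 4 negative between Hopx high and Hopx low. Klf16 was the most covered of them, with means of 603 ± 164 bases per Mb in Hopx high (SD, n = 3), 391 ± 79.3 in Hopx low (SD, n = 3) and 248 ± 14.4 in naive (SD, n = 2), opposite in order to Klf2. Klf10, a TGF-beta-inducible factor, had means of 15.1, 26.3 and 35.2 in the same order, and Klf7 had 8.25, 14.3 and 25.5.

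Of 24 genes that make, break down, sense or signal S1P, 17 were tested and 1 was called, Rgs2, a regulator of G protein signalling, lower in Hopx high against naive (log2 difference -2.39, limma adjusted p = 0.0491), beside 0.499% of all genes. The list's median was -0.54 between Hopx high and Hopx low, beside -0.25 over all genes. Gnai2, the G protein through which S1PR1 acts, had a log2 difference of -0.66 there, which did not pass (limma adjusted p = 0.992). Sphk2, which makes S1P, differed by 0.35 and Sgpl1, which degrades it, by -0.71.

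Of the factors that act on Klf2 or S1pr1, 17 of 18 were tested and 1 was called, Hdac5, a histone deacetylase that binds MEF2 factors, lower in Hopx high against naive (-1.86, limma adjusted p = 0.0386), beside 0.499% of all genes. Between Hopx high and Hopx low 16 of the 17 were negative, as were 70.0% of all genes, with a median of -0.44 beside -0.25 over all genes, and 0 were called. Foxo1 had 76.4 bases per Mb on average in Hopx high, 101 in Hopx low and 116 in naive. Its log2 difference between the Hopx groups was -0.41 (limma adjusted p = 0.992), smaller than that of Klf2. Mapk7, the kinase ERK5 that induces Klf2 through MEF2 factors in endothelial cells, differed by -0.49.

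Homing and retention receptors split. Of 18 listed, 14 were tested. In Hopx high against naive 3 rose and 1 fell, beside 3.3% and 0.499% of all genes. Those that rose were Cxcr5, the follicle homing receptor (4.34, limma adjusted p = 0.000932), Cd44, an adhesion receptor of activated cells (2.61, 0.0143), and Ccr6, which was at 0 in naive (0.0222), and the one that fell was Cxcr4, the CXCL12 receptor (-2.73, 0.0187). Hopx low against naive had 1 call, Cxcr5 again (4.23, limma adjusted p = 0.00539), beside 0.296% of all genes called higher. Gpr183, an oxysterol receptor that positions T cells, differed by -1.30 between the Hopx groups (limma adjusted p = 0.984, and 0.199 in the 6-library fit).

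Naive T cell genes linked to FOXO1 and KLF2 were all negative between Hopx high and Hopx low, 18 of 18, as were 70.0% of all genes, with a median of -0.86 beside -0.25. The 6-library fit called 4 of them lower, beside 0.148% of all genes: Txnip, Tsc22d3, Igfbp4 and Btg2. Btg2, an antiproliferative gene, had a log2 difference of -1.76 (limma adjusted p = 0.0397), and the other calls were known when the list was made. Igfbp4 was lowest in naive, with means of 37.4, 120 and 24.9 bases per Mb across Hopx high, Hopx low and naive. Against naive 3 were called lower in Hopx high, Txnip (-3.01), Btg2 (-2.39) and Tob1 (-2.39), with limma adjusted p of 0.000505, 0.0140 and 0.0307, beside 0.499% of all genes. The list was made with earlier results of these data known, so its counts and medians are a description and no test of the list. Tcf7, a factor of naive and memory T cells, had means of 820, 1947 and 1704 bases per Mb across Hopx high, Hopx low and naive, with a difference of -1.30 between the Hopx groups that did not pass (limma adjusted p = 0.804).

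All 20 listed activation genes were tested. Between Hopx high and Hopx low 10 were positive and 10 negative, where 70.0% of all genes were negative, with 0 called. The list's median was -0.08 beside -0.25 over all genes. In Hopx high against naive 4 rose, Cd83, Tnfrsf4, Tnfrsf18 and Cd44, by 2.61 to 3.64 on the log2 scale, and 1 fell, the immediate-early factor Egr1 (-1.89, limma adjusted p = 0.0310), beside 3.3% and 0.499% of all genes. In Hopx low against naive 1 rose, Cd83 (3.04, limma adjusted p = 0.0257), beside 0.296%. Nr4a1, an early gene of receptor signalling, had means of 998, 2167 and 2763 bases per Mb across Hopx high, Hopx low and naive, without a call.

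**Figure D4:**
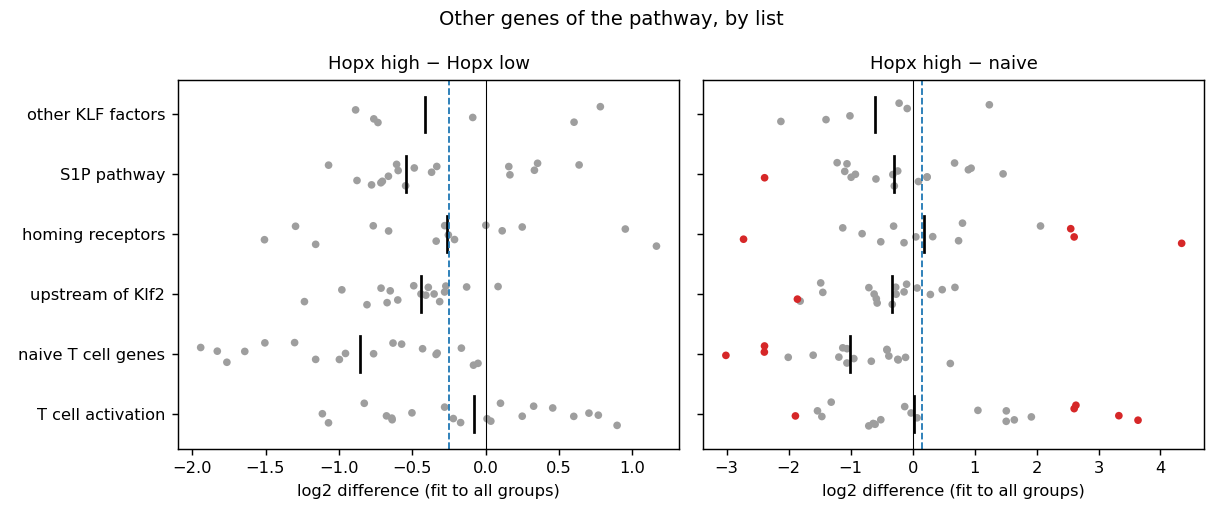
Log2 differences of single genes in the 6 lists (points) in the limma fit to all groups, for Hopx high against Hopx low and against naive. Red points passed an adjusted p of 0.05, black bars are list medians and the dashed blue line is the median over all genes. The naive T cell genes have the lowest list medians, -0.86 and -1.003. All lists were made with earlier results of these data known.

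Other cell types also express these genes, B cells Klf2, S1pr1 and Ccr7, and endothelial cells Klf2 and S1pr1, and antigen-presenting cells were in the culture. The T cell genes Cd3d, Cd3e, Cd3g and Cd4 were each present in all 9 libraries, at 14.0 bases per Mb or more. The CD8 T cell gene Cd8b1 was also present in all 9, at 14.8 to 31.1, while Cd8a was at 0 in all but Hopx low replicate 3 (0.362). The 10 B cell markers summed to 4.17 to 10.01 bases per Mb across Hopx high, 21.6 to 30.0 in Hopx low and 13.4 to 44.1 in naive, so they were lowest in Hopx high as S1pr1 and Klf2 were. Of these markers 3 were tested, and Cd79a was called lower in Hopx high (0.666 ± 0.421 against 6.26 ± 2.33 bases per Mb in Hopx low, SD, n = 3, called in the 6-library fit). Cd79b and Ms4a1 were at or below 1.03 and 2.14 in every Hopx library, and Cr2 was at 0 in every library. The part of B cell RNA in the differences was not tested. Endothelial markers summed to at most 1.40 in any library, with Cdh5, Tek, Vwf and Emcn at 0 in all. Dendritic cell and monocyte markers summed to 4.26 to 12.5 in Hopx high, 6.98 to 14.2 in Hopx low and 4.30 to 8.24 in naive, with Xcr1, Clec9a and Siglech at 0 in all, and the 5 MHC class II genes summed to 13.9 to 55.7, 20.8 to 78.6 and 23.0 to 43.7.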

How the data were processed

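RNA from 9 libraries was analysed. Barcoded Ion Total RNA libraries followed a Ribominus depletion step, per the labels' protocols. Per the submitters' processing notes, bedtools and build mm10 were used; no source used here names the aligner, the annotation or the use of strand. The authors deposited a normalized coverage signal for each gene row, plus their group means, ratios of means as a fold, and unadjusted p-values. Tested on the values, the signal is summed base coverage plus 1 base, scaled to a mean library total of 333 megabases (whole in 100% of values within 1e-06). The added base was removed and values were set to bases per Mb. The limma package (3.58.1, R 4.3.3) tested genes whose mean reached 1 base per Mb, on log2(bases per Mb + 1) with a variance trend and Benjamini-Hochberg adjustment over all genes at 0.05. A fold on that scale understates the change of low genes. The members, gene lists, tests and naming rule were chosen with earlier results of these data known. The rule names all members and, from each list, up to 6 called genes or up to 3 of the highest mean. Foxo1, Mapk7, Gpr183, Tcf7, Nr4a1, Gnai2, Sphk2 and Sgpl1 fall outside it and were chosen for their roles after their values were seen. Of 160 listed genes 4 were not matched and 3 were matched by an older symbol.

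Exon lengths, coordinates and overlaps came from GENCODE M21 on GRCm38, and promoter sequences from RefSeq on GRCm38.p6. Deviations from the group means correlated between same-numbered Hopx low and Hopx high libraries (r = 0.474, 0.482 and 0.179 across 6078 genes). Between unlike numbers r ran from -0.412 to 0.0124. The Hopx libraries were therefore compared by number, and naive was not taken as paired. The main fits hold no replicate block, which was an alternative. Alternatives were the scaling, values as deposited, the pseudocount, the filter, the trend, a replicate block, the samples fitted, naive 1 and 2 apart, and leaving out each replicate. The limma step was checked on simulated data with known changes between Hopx high and Hopx low, with the same independent spread in every library. That setting holds neither the unlike naive samples nor the correlation by number, so the check does not bear on the results against naive. Tables and figures were made in Python 3.11.15 (pandas 2.3.3, matplotlib 3.10.9).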

Additional observations from a re-analysis of the deposited data

How the results depend on the processing

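S1pr1 and Klf2 in Hopx high against naive kept their call under all 21 alternatives, with log2 differences from -3.67 to -2.35 and from -4.45 to -3.32. Their largest limma adjusted p was 0.0473 and 0.0456, just under the threshold of 0.05. The counts of genes called moved more. For Hopx high against Hopx low, 0 became 2 with a pseudocount of 5 and 69 with the Hopx groups alone, and ran from 0 to 57 when replicates were left out, the latter without naive replicate 3. The 69 genes of the 6-library fit became 9 with values as deposited, 41 with a pseudocount of 0.1, 0 with no filter on low values, 28 without a variance trend, and 33 with a replicate block and median scaling together, an alternative added after seeing the data; it ran from 5 without Hopx low replicate 3 to 79. For Hopx high against naive, 411 became 704 with median scaling, 731 with quantile normalization, 240 with no filter and 866 with naive 1 and 2 apart, and ran from 157 without Hopx high replicate 1 to 2706 without naive replicate 3. For Hopx low against naive, 33 became 56 with values as deposited, 58 with a pseudocount of 0.1, 8 with no filter, 166 with naive 1 and 2 apart and 5 with these groups alone; it ran from 16 to 2773, the latter without naive replicate 3. The cause of these shifts was not tested.

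With a replicate block, 33 became 12 in Hopx low against naive and the Klf3 call against naive was lost (limma adjusted p = 0.106). The block changed no other call of a member, and 75 genes were called in the 6-library fit. In that blocked 6-library fit the limma adjusted p was 0.0145 for Klf2, 0.00445 for S1pr1 and 0.277 for Cd69. Small differences changed sign. In Hopx low against naive, Cd69 (0.18) became -0.23 with median scaling, -0.14 with quantile normalization and -0.025 with totals without Gas5, and Ccr7 (-0.18) became 0.038 with naive 1 and 2 apart. With single replicates left out, Cd69 ran from -0.23 (without Hopx low replicate 3) to 1.51, Ccr7 from -0.41 to 0.47, S1pr1 from -0.97 to 0.20 and Klf6 from -0.73 to 0.023, each highest without naive replicate 3. Cd69 in Hopx high against naive ran from -0.92 to 0.53, highest without that library, and S1pr4 between Hopx high and Hopx low ran from -0.81 to 0.094, highest without Hopx high replicate 2. Naive libraries 1 and 2 hold the fewest bases, which limits low genes there most.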
